A study of Mus musculus with 42 samples.

Results

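Cathepsins are proteases of lysosomes and secretory granules, and 9 of their genes were followed here through mouse uterine tissue-resident NK (trNK) cells: Ctsg, Ctsb, Ctsc, Ctsd, Ctsh, Ctsl, Ctss, Ctsw and Ctsz. These are 9 of the 54353 genes shared by the bulk count tables. They were taken as a list of names, and Ctsg was chosen by its measured bulk levels, with no reads in the trNK-V subset and many in the trNK-T subset. Its levels in the sorted subsets are therefore given as a description, with no test.

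All mice were C57BL/6, 8 to 12 weeks old and no group carried a targeted allele. Gestational days (gd) were counted from the copulation plug. The 34 bulk libraries formed 4 experiments with 2 libraries per group. In the gestation experiment, whole trNK cells (live, CD45+, lineage-, NK1.1+, NKp46+, CD49a+, CXCR6-) came from virgin, gd6.5 and gd8.5 uteri. In the subset experiment, trNK cells of gd8.5 uteri were split by the surface proteins CD55 and 4-1BB into low (virginal, trNK-V), intermediate (differentiating, trNK-D) and high (terminal, trNK-T) cells. In the inhibitor culture, sorted trNK cells were kept in vitro as a control, with 20 ng/ml of the cytokine IL-21 for 3 days, or with IL-21 together with 1 µM Stattic (iSTAT3), which inhibits STAT3. In the time course, trNK cells were cultured with IL-15, labelled 10 ng/ml, with or without 20 ng/ml IL-21 for 0, 6, 24 or 72 h. The study describes the cultured cells as trNK-V of gd6.5 mice, while its culture methods name uterine trNK cells of virgin or gd6.5 mice. Those methods also write the Stattic dose in mM instead of µM, and the dose here is that of the labels. They put 10 ng/ml IL-15 in the medium of cultured trNK cells, so the control culture would hold it too. The labels give IL-15 for the time course and not for the inhibitor culture. A further set of 15175 single cells, sorted as live CD45+ NK1.1+ NKp46+ cells from virgin and gd8.5 uteri and mixed before capture, was analysed as 1 pooled sample without replicates. Nothing in the labels says that the 2 libraries of a group came from different animals, so p-values measure the spread between these libraries only.

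The names cover different enzymes. Cathepsin G is a serine protease of the granzyme and chymase family, stored in the granules of neutrophils, and its gene lies in the same cluster on chromosome 14 as the granzyme B gene. Cathepsins B, C, H, L, S, W and Z are cysteine proteases, and cathepsin D is an aspartic protease. Cathepsin C removes the dipeptide that keeps granzymes and cathepsin G inactive, cathepsin S trims the invariant chain (encoded by Cd74) of MHC class II molecules, and cathepsin W is largely restricted to NK cells and cytotoxic T cells.

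The window of 250 bases before the annotated start site is shown for Ctsg and Ctsc, because Ctsg has the levels that the list turns on and Ctsc was called between conditions in both cultures. Both come from RefSeq on GRCm38.p6 (mm10), read 5′ to 3′ on the strand of the gene, with matches to the searched motifs in capitals. The Ctsg window is chr14:56102575-56102824 on the minus strand, and the Ctsc window is chr7:88277835-88278084 on the plus strand.
Ctsg: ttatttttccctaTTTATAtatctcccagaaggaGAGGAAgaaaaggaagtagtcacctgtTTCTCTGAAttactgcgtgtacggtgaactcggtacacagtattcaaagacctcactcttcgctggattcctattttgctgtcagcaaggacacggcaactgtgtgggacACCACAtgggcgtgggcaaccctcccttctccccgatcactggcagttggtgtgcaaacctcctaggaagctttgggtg
Ctsc: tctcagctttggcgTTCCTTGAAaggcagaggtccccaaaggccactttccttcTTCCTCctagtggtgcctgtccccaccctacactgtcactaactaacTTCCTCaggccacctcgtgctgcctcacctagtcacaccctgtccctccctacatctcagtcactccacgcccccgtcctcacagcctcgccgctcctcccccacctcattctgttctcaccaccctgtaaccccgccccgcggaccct
The motifs were searched on both strands in the windows of 6 of the 9 members, the other members having no window in the table used. Each of the 2 printed windows holds the palindromic STAT motif TTCNNNGAA, found in 7.18% of 27025 promoter windows of the same length. The Ctsg match, TTCTCTGAA, lies 189 to 181 bases before the start site, and the Ctsc match, TTCCTTGAA, lies 236 to 228 bases before it. Both windows also hold the PU.1 motif GAGGAA (23.1% of windows), once in Ctsg, 216 to 211 bases before the start, and in 2 places in Ctsc on the other strand, at 196 to 191 and 149 to 144 bases. In Ctsg a RUNX motif, TGTGGT on the other strand (14.2% of windows), lies 79 to 74 bases before the start and a TATAAA on the other strand (13% of windows) lies 237 to 232 bases before it. Of the 6 windows searched, that of Ctsd was the one with the lysosomal CLEAR motif TCACGTGA (0.803% of windows), at 99 to 92 bases. A match of letters is not evidence of binding.

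Levels are given as RPKM, read counts per kilobase of exon and scaled to the library's total count, computed from the deposited counts. A gene was tested in an experiment if it passed 10 RPKM in both libraries of at least 1 group. It was called higher or lower at an adjusted p below 0.05 by edgeR's quasi-likelihood test (Benjamini-Hochberg over all genes tested) with a fold change above 2. Under that filter Ctsb, Ctsc, Ctsd, Ctss, Ctsw and Ctsz were tested in all 4 experiments. Ctsg passed only in the subset experiment and only through trNK-T, and Ctsh and Ctsl passed nowhere. Before the members are described, 3 sets of libraries need naming. The 2 virgin libraries lay far apart, at 173 and 8740 RPKM for granzyme B (Gzmb), for example. The trNK-V and trNK-D libraries carried RNA of other cells, such as Cd209a of dendritic cells (70 RPKM in trNK-V replicate 1 and 147 in trNK-D replicate 1, 0 in the other libraries of the subsets) and Jchain of plasma cells (1700 RPKM in trNK-D replicate 2). Of the 72 h libraries of the time course, 3 held fewer genes with at least 10 counts (8919 and 8488 without IL-21 and 9588 with IL-21 replicate 2) than the 11513 to 13034 of the earlier libraries, and IL-21 replicate 1 held 11685. Tests were made within an experiment. The time course was made with another library kit, so for its levels against the other experiments the kit and the condition cannot be told apart.

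**Figure D1:**
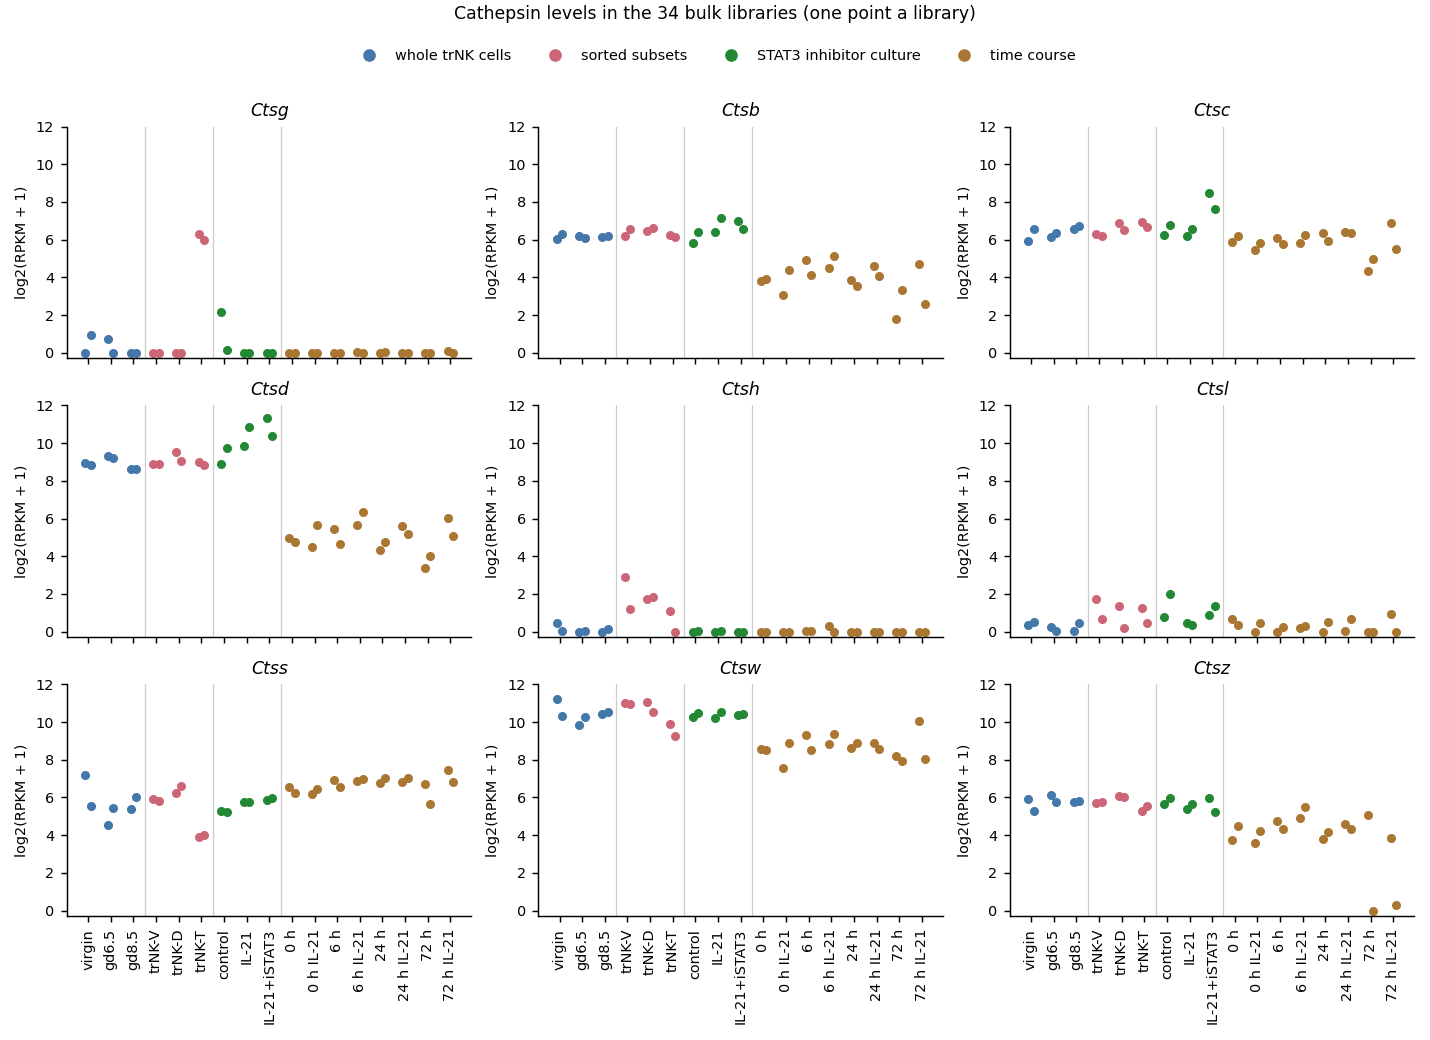
Level of each of the 9 cathepsin genes as log2(RPKM + 1) in the 34 bulk libraries, with 1 point per library and colours for the 4 experiments. Ctsg stands at 77.3 and 62.4 RPKM in trNK-T and at or below 3.42 RPKM elsewhere, whereas Ctsw, Ctsd, Ctsc and Ctss have reads in every library.

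Ctsg (chr14:56099881-56102574, minus strand) had reads almost only in trNK-T. The 2 trNK-T libraries held 1203 and 765 Ctsg counts, or 77.3 RPKM (95% Poisson interval 73 to 81.8) and 62.4 RPKM (58.1 to 67), a mean of 69.9 ± 10.5 RPKM (SD, n = 2). Both trNK-V and both trNK-D libraries held 0 counts. These intervals and limits cover counting error only, since PCR reads without molecular identifiers are not independent molecules. A count of 0 allows up to 3 counts, or 0.207 RPKM in trNK-V and 0.148 RPKM in trNK-D at most. The measured 62.4 RPKM of the lower trNK-T library was 301-fold the limit of trNK-V and 422-fold that of trNK-D. These folds leave out the interval of the trNK-T library, so they are not strict minima.

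Whole trNK cells sorted at the same day, gd8.5, also held 0 Ctsg counts in both libraries, which allows up to 0.177 RPKM. The measured level of the lower trNK-T library, from another experiment, was 353-fold that limit. Terminal-stage genes had reads in all bulk groups. The 4 markers Tnfrsf9, Cd55, Klrg1 and Il2ra, of which Tnfrsf9 and Cd55 encode the proteins used for the sort, summed to 1150 to 1270 RPKM at gd8.5, between the 384 to 392 RPKM of trNK-V and the 2180 to 2320 RPKM of trNK-T. The sums were 976 to 1070 RPKM in trNK-D, 436 to 1780 RPKM in virgin and 938 to 1610 RPKM at gd6.5. In bulk samples, fewer cells of a type and less RNA per cell cannot be told apart.

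Across all 34 libraries, 25 held 0 Ctsg counts, 4 held 1 to 3 counts and 5 held more. Beside trNK-T, the 3 libraries with more were control culture replicate 1 (66 counts, 3.42 RPKM), virgin replicate 2 (17 counts, 0.905 RPKM) and gd6.5 replicate 1 (16 counts, 0.68 RPKM). The other replicate held 2 counts in the control culture and 0 in virgin and gd6.5. No library with IL-21 in the inhibitor culture held a Ctsg count, and the highest time course library, 72 h with IL-21 replicate 1, held 2 counts (0.0529 RPKM).

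**Figure D2:**
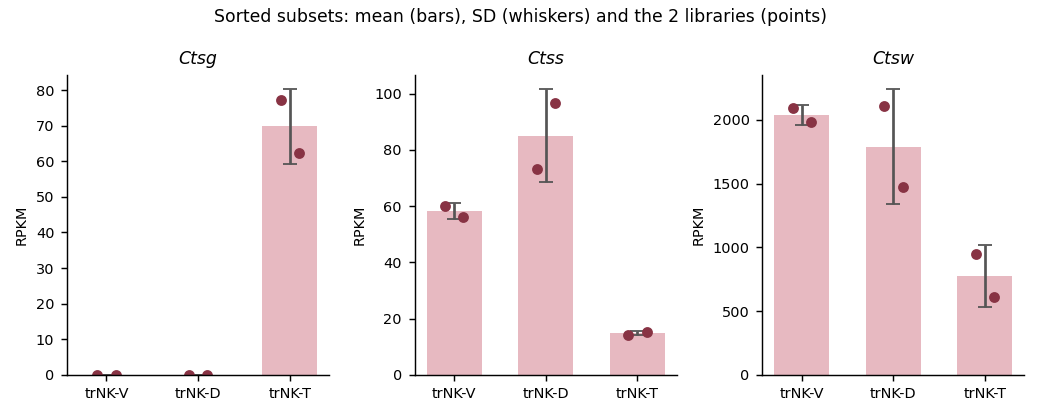
RPKM of Ctsg, Ctss and Ctsw in the sorted subsets, with bars for the mean, whiskers for the SD and points for the 2 libraries of each subset, on axes that start at 0. Ctsg has its reads in trNK-T, while the trNK-T libraries of Ctss and Ctsw lie below those of trNK-V and trNK-D.

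Markers of other cells known to store cathepsin G were compared over the subsets. The neutrophil precursor genes Mpo, Elane, Prtn3 and Ms4a3 summed to 0 to 0.0246 RPKM in trNK-T, with 3 of the 4 at 0 in both libraries, and to 0 in trNK-V and trNK-D. Of 7 mast cell genes, 4 were at 0 in both trNK-T libraries, and the 7 summed to 8.79 to 10.7 RPKM, against 1.98 to 2.06 RPKM in trNK-V and 2.24 to 7.53 RPKM in trNK-D. Most of that sum was Cpa3, at 4.67 to 4.68 RPKM in trNK-T, 1.74 to 3.65 RPKM in trNK-D and 0 in trNK-V, and Cma1, at 2.86 to 5.17 RPKM in trNK-T. These moved with Ctsg over the subsets. The mast cell sum was 7.22 to 14.5 RPKM in virgin and 6.87 to 16.2 RPKM in the control culture. Cma1 was also a leading gene of the cNK-like single cells. The part of mast cell RNA in the level of Ctsg was not tested. Mcpt8, a granule protease of basophils that neighbours the granzyme genes, stood at 39.7 and 45.4 RPKM in trNK-T, 0 in trNK-V, and 2.99 and 12 RPKM in trNK-D, while the other basophil gene, Prss34, was at 0 in trNK-T. Unlike Ctsg, Mcpt8 was also present in whole gd8.5 trNK cells, at 3.1 and 12 RPKM.

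Genes whose log2(RPKM + 1) followed Ctsg closely over the 34 libraries, among 5677 genes that passed the filter in any experiment, were Epas1 (Pearson's r 0.857), Anxa3 (0.738), Cd59a (0.731), Gm13394 (0.707) and Ltb4r1 (0.699). These values describe the ranking and have no p, because the likeness rests on the 2 trNK-T libraries, the only ones above 10 RPKM for Ctsg, and all libraries share kits and sorts within an experiment. Epas1, a hypoxia-inducible transcription factor, stood at 10.3 and 11.6 RPKM in trNK-T and at most 3.27 RPKM in any other library. The other cathepsins were unlike Ctsg in this ranking, with r of -0.70 for Ctss and between 0.04 and 0.22 for Ctsb, Ctsc, Ctsd, Ctsw and Ctsz.

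In trNK-T, Ctsg was nonetheless a small part of cathepsin RNA. It made up 4.32% and 4.61% of the summed RPKM of the 9 genes there, and Ctsw and Ctsd together made up most of the rest.

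Ctsw (chr19:5465240-5468498, minus strand), the lymphocyte cathepsin, had the highest level per length of the 9 genes in the gestation and subset libraries. It stood at 2090 and 1980 RPKM in trNK-V, 2110 and 1470 RPKM in trNK-D, and 950 and 606 RPKM in trNK-T. The trNK-T libraries lay below all 4 others. The log2 fold change of trNK-T against trNK-V was -1.39 (SE 0.26, adjusted p = 0.0113, edgeR). This call held in 7 of 7 other settings of the fit, and it was lost on leaving out trNK-V replicate 1 (adjusted p = 0.0515), trNK-V replicate 2 (0.0588) or trNK-T replicate 2 (0.058). Against trNK-D the log2 difference was -1.21 (SE 0.26) and the adjusted p 0.0738 by edgeR, past the threshold with DESeq2, without the filter and with the replicate number as a block (adjusted p = 0.0365). Genes listed as markers of other lymphocytes moved with Ctsw. The 6 conventional NK (cNK) markers summed to 491 to 606 RPKM in trNK-D and 245 to 247 RPKM in trNK-T, with both trNK-V libraries higher, up to 1300 RPKM, and 2 of 2 tested were called lower in trNK-T against trNK-V. The 6 T cell markers summed to 563 to 604, 409 to 415 and 247 to 385 RPKM in the same order, and 4 of 5 tested were called lower. In each list 1 marker was at 0 in both trNK-T libraries. Some of these genes also had UMIs in trNK-like single cells. The cNK markers were seen in 0.341% to 78.5% of cells (median 15.1%) of the cluster led by Vps37b. In cNK-like cells they were seen in 37.2% to 73.4% (median 59.7%). The T cell markers measured reached 44% of cells (median 2.6%) in the cluster led by Mt2 and Gzmg. The part of cNK and T cells in the fall of Ctsw was not tested.

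Ctss (chr3:95526786-95556403, plus strand), which acts in MHC class II antigen presentation, fell in trNK-T against both other subsets. It stood at 60.1 and 56.2 RPKM in trNK-V, 73.3 and 96.8 RPKM in trNK-D, and 14.2 and 15.3 RPKM in trNK-T. The 3 subsets did not overlap. The log2 fold change was -1.98 against trNK-V (SE 0.23, adjusted p = 0.00362) and -2.54 against trNK-D (SE 0.23, adjusted p = 0.00764, edgeR). The first call held in all 7 other settings and without any 1 of the 4 libraries, and the second was lost without trNK-T replicate 2 (adjusted p = 0.0822). Genes of antigen-presenting cells moved with Ctss. The 7 macrophage markers summed to 25.1 to 29.7 RPKM in trNK-V, 49.2 to 49.7 RPKM in trNK-D and 10.3 to 16.6 RPKM in trNK-T, with 1 of the 7 at 0 in both trNK-T libraries. The myeloid gene Lyz2 stood at 19.3 and 269 RPKM in trNK-V, 212 and 303 RPKM in trNK-D, and 1.97 and 4.61 RPKM in trNK-T. Cd74, a substrate of cathepsin S that was looked at after its values were seen, stood at 362 and 227 RPKM in trNK-V, 440 and 216 RPKM in trNK-D, and 5.18 and 4.07 RPKM in trNK-T. Ctss is abundant in macrophages, and the part of such cells in its fall was not tested.

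For trNK-T against trNK-V, edgeR called 2 of the 6 tested members other than Ctsg, both lower, where 21.2% of all 4683 genes tested were called. For trNK-T against trNK-D it called 1 of 6, against 1.75% of all genes. For trNK-D against trNK-V it called 0 of 6, against 0.32% of all genes. In this last comparison 2 of the 6 had an unadjusted p below 0.05, and DESeq2 and limma-voom called 0. Of the members that were not called, Ctsc was higher in both trNK-T libraries than in both trNK-V libraries. It stood at 78.9 and 73.4 RPKM in trNK-V, 119 and 91.1 RPKM in trNK-D, and 123 and 101 RPKM in trNK-T (log2 difference of trNK-T against trNK-V 0.56, SE 0.18, adjusted p = 0.0563). Ctsd, the second most abundant member, stood at 482 and 480 RPKM in trNK-V, 733 and 528 RPKM in trNK-D, and 511 and 454 RPKM in trNK-T (0.01, SE 0.19, adjusted p = 0.978). Ctsb and Ctsz had log2 differences of -0.19 (SE 0.18) and -0.28 (SE 0.19) for the same comparison.

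Ctsh and Ctsl, cysteine proteases of most lysosomes, had few reads in these lymphocytes. Ctsh stood at 6.58 and 1.31 RPKM in trNK-V, 2.33 and 2.58 RPKM in trNK-D, 1.17 and 0 RPKM in trNK-T, and at most 0.397 RPKM in any library outside the subset experiment. Ctsl did not pass 2.99 RPKM in any of the 34 libraries. Neither gene was tested. The higher Ctsh values fall in the subset experiment, whose trNK-V and trNK-D libraries also held RNA of antigen-presenting cells. The part of such cells in the Ctsh values was not tested.

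The wider protease machinery was read from lists of names, whose members were written with earlier results known. Of 18 granule serine protease genes other than Ctsg, 9 were tested between trNK-T and trNK-V, and 2 of these, Mcpt8 and Gzmk, passed the filter only through trNK-T. Of the other 7, 6 were higher and 0 lower, where 21.2% of all genes were called in either direction. Granzyme B (Gzmb) rose from 1390 to 1840 RPKM in trNK-V to 7900 to 13100 RPKM in trNK-T (log2 fold change 2.70, SE 0.35, adjusted p = 0.00423). Granzyme E (Gzme) rose from 46.6 to 65.5 RPKM to 3500 to 4380 RPKM (6.14, SE 0.27, adjusted p = 0.000274). The calls of Gzmb, Gzmc and Gzme held without any 1 library, and those of Gzmd and Gzmf were lost without trNK-T replicate 2 and that of Gzmg without either trNK-T library. Gzmc to Gzmg are near copies of each other, so how their reads were split between them is uncertain.

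Of 10 genes that mature cathepsins or deliver them to lysosomes, 4 were tested and 1 was higher in trNK-T. It was M6pr, the cation-dependent mannose 6-phosphate receptor that carries newly made lysosomal enzymes from the Golgi, which rose from 89.4 to 91.2 RPKM in trNK-V to 200 to 253 RPKM in trNK-T (log2 fold change 1.33, SE 0.17, adjusted p = 0.00421), in 7 of 7 other settings and without any 1 library. Of 42 lysosomal genes, 26 were tested, with 1 higher, 4 lower and a median of -0.20, and that share called was near the 21.2% of all genes. The lower genes included Psap, Acp5 and Galns, and the higher one was Asah1. Each of these calls was lost on leaving out at least 2 of the 4 libraries in turn.

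Of 16 cathepsin inhibitor genes, 7 were tested, with 1 higher, 1 lower and a median of 0.16, where 21.2% of all genes were called. Serpinb6a, an intracellular serpin that inhibits cathepsin G, rose from 13.8 to 16 RPKM to 28.8 to 34.9 RPKM (1.10, SE 0.21, adjusted p = 0.0111), and the call was lost without trNK-T replicate 1. Serpina3g, an inhibitor of cysteine cathepsins, fell from 426 to 427 RPKM in trNK-V to 26.1 to 127 RPKM in trNK-T (-2.47, SE 0.72, adjusted p = 0.0391), and this call was lost without either trNK-V library or trNK-T replicate 2. The cystatins with the highest levels were not called. Cst7, the cystatin of cytotoxic lymphocytes that restrains cathepsin C, stood at 635 to 752 RPKM in trNK-V and 530 to 1050 RPKM in trNK-T. Of 14 other cathepsin genes, Ctsa and Ctso were tested and neither was called.

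Over gestation no cathepsin of whole trNK cells passed the test. edgeR called 0 of 6 members for gd6.5 against virgin (6.17% of all 4504 genes called), 0 of 6 for gd8.5 against virgin (0.422%) and 0 of 6 for gd8.5 against gd6.5 (0%). In these comparisons 2, 0 and 1 of the 6 had an unadjusted p below 0.05, DESeq2 called 1, 0 and 0, and limma-voom called 0, 0 and 0. The share of all genes for gd6.5 against virgin rests on single libraries, with 0 genes called without either gd6.5 library, 907 without virgin replicate 2, 2 with the replicate number as a block and 0 with only the groups compared. For gd8.5 against gd6.5, where edgeR called no gene at all, 262 genes had a fold above 2 and an unadjusted p below 0.05, and DESeq2 called 221. Ctss stood at 143 and 44.9 RPKM in virgin, 22 and 43 RPKM at gd6.5, and 41.2 and 63.5 RPKM at gd8.5. The gap between the 2 virgin libraries was wider than that between any of the group means. The log2 difference of gd6.5 against virgin was -1.62 (SE 0.59, adjusted p = 0.121), and it became -2.17 (adjusted p = 0.0069) without virgin replicate 2 and -0.53 (adjusted p = 0.388) without virgin replicate 1. Ctsw stood at 2380 and 1270 RPKM in virgin, 918 and 1220 RPKM at gd6.5, and 1380 and 1470 RPKM at gd8.5, and it was called lower at gd6.5 only without virgin replicate 2 (-1.18, adjusted p = 0.00436). Virgin replicate 1 was also the gestation library with the most Cd74, at 76.5 RPKM against 2.41 to 23.4 RPKM in the others.

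Ctsd, Ctsb, Ctsc and Ctsz varied less. Ctsd stood at 492 and 460 RPKM in virgin, 649 and 591 RPKM at gd6.5, and 393 and 398 RPKM at gd8.5. The gd6.5 libraries were the highest, and the log2 difference of gd8.5 against gd6.5 was -0.62 (SE 0.15, adjusted p = 0.103). Ctsb lay between 64.3 and 76.9 RPKM in all 6 libraries. Ctsc lay between 60.6 and 103 RPKM, and Ctsz between 37.5 and 68.5 RPKM.

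In the inhibitor culture, Ctsc (chr7:88278085-88310888, plus strand), the activator of granzymes, was the member that differed. It stood at 73.8 and 107 RPKM in the control, 71.7 and 92.9 RPKM with IL-21, and 359 and 198 RPKM with IL-21 plus the STAT3 inhibitor. The control and IL-21 libraries overlapped and both inhibitor libraries lay above them. The log2 fold change of the inhibitor was 1.86 against IL-21 (SE 0.38, adjusted p = 0.0471) and 1.91 against the control (SE 0.38, adjusted p = 0.0341, edgeR). Both calls were lost whichever of the 4 libraries was left out (adjusted p from 0.109 to 0.226 and from 0.0669 to 0.221). They were also lost with the replicate number as a block (adjusted p = 0.154 and 0.103). edgeR called 1 of 6 members in each of these comparisons, where 2.96% and 4.74% of all 4158 genes were called. These shares stand for 123 and 197 genes, and the replicate block left 8 and 55. IL-21 alone left Ctsc at a log2 difference of 0.05 (SE 0.37, adjusted p = 0.994). The 4 trNK markers moved in these cultures, with sums of 966 to 1100 RPKM in the control, 313 to 367 RPKM with IL-21 and 228 to 234 RPKM with the inhibitor, and 2 of 4 were called lower for the inhibitor against the control. Of 2 cNK markers tested there, 1 was called higher. The part of a changed cell makeup in the Ctsc calls was not tested.

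Ctsd had a wider spread in the same cultures and was not called. It stood at 479 and 846 RPKM in the control, 925 and 1870 RPKM with IL-21, and 2610 and 1350 RPKM with IL-21 and the inhibitor. Every treated library lay above both controls. The log2 difference was 1.24 for IL-21 against the control (SE 0.48, adjusted p = 0.467) and 1.86 for the inhibitor against the control (SE 0.49, adjusted p = 0.0759, edgeR), the second past the threshold with DESeq2, without the filter and with only the groups compared. edgeR called 0 of 6 members for IL-21 against the control, where 0.289% of all genes were called, 2 of the 6 had an unadjusted p below 0.05, and DESeq2 and limma-voom called 0. Ctsw lay between 1170 and 1500 RPKM in all 6 libraries and was not called. Ctsb stood at 55.4 and 84 RPKM in the control, 83.7 and 139 RPKM with IL-21, and 124 and 92 RPKM with the inhibitor, with a log2 difference of 0.85 for IL-21 against the control (SE 0.36, adjusted p = 0.534). Ctss stood at 37.8 and 36.6 RPKM in the control, 54.1 and 53.6 RPKM with IL-21, and 56.8 and 61 RPKM with the inhibitor, and was not called. Serpinb6a, the cathepsin G inhibitor, was higher with the inhibitor than in the control (14.6 to 18.6 RPKM and 41.1 to 45.7 RPKM, log2 fold change 1.67, SE 0.34, adjusted p = 0.0347), a call lost whichever of the 4 libraries was left out. Gzmb was higher with IL-21 than in the control (3.70, SE 0.35, adjusted p = 0.0136, edgeR), and this call held in 4 of 7 other settings and was lost without control replicate 1. It was also higher with IL-21 plus the inhibitor than in the control (2.72, SE 0.34, adjusted p = 0.00757, edgeR). That call held in 6 of 7 other settings and was lost without control replicate 1 or either inhibitor library.

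**Figure D3:**
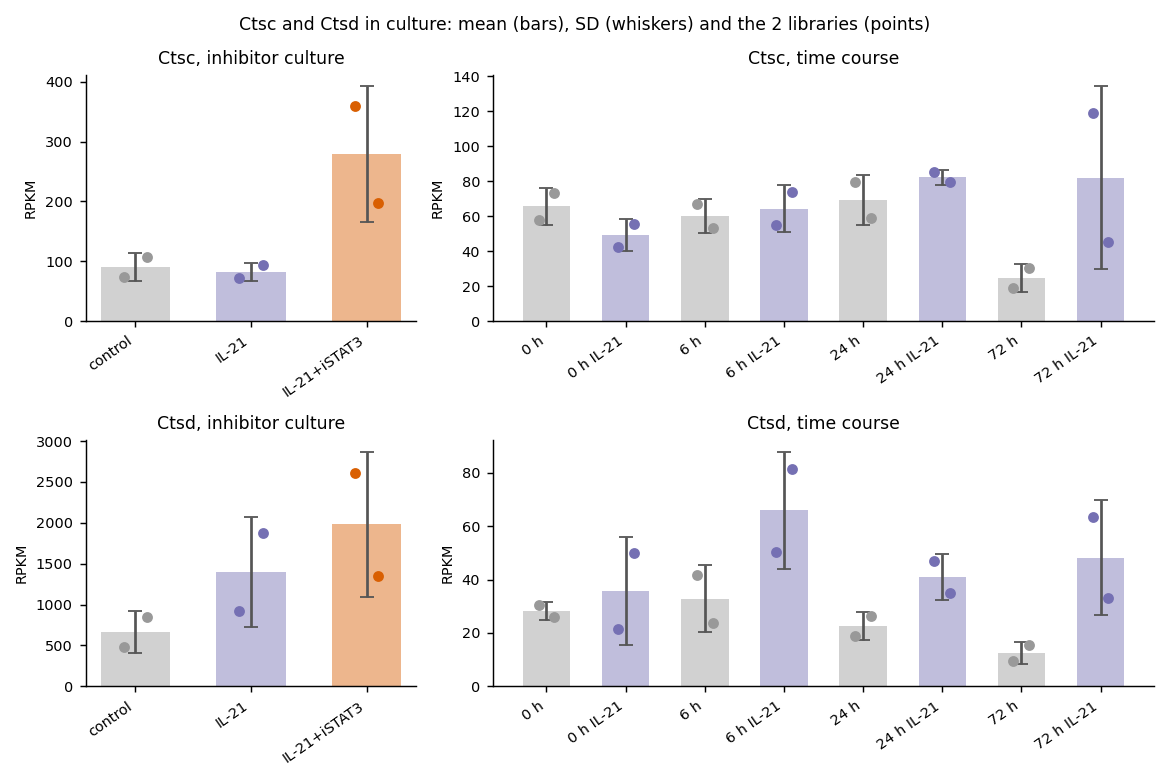
RPKM of Ctsc and Ctsd in the inhibitor culture and in the time course, with bars for the mean, whiskers for the SD and points for the 2 libraries of each group, on axes that start at 0. Ctsc is highest with IL-21 plus Stattic (359 and 198 RPKM). At 72 h of the time course Ctsc and Ctsd are higher with IL-21 than without it. In the inhibitor culture Ctsc overlaps between IL-21 (71.7 and 92.9 RPKM) and the control (73.8 and 107 RPKM).

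In the time course, Ctsc and Ctsd were higher with IL-21 than without it at 72 h. IL-21 for 3 days in the inhibitor culture had called neither. There the log2 difference was 0.05 for Ctsc (SE 0.37, adjusted p = 0.994, edgeR) and 1.24 for Ctsd (SE 0.48, adjusted p = 0.467, edgeR). The values that follow are those of the time course. From 24 h to 72 h the mean of Ctsc went from 69.3 ± 14.2 to 24.6 ± 8.11 RPKM without IL-21 and from 82.3 ± 4.19 to 81.9 ± 52 RPKM with it (SD, n = 2). The mean of Ctsd went from 22.6 ± 5.22 to 12.4 ± 4.12 RPKM without and from 40.9 ± 8.57 to 48.2 ± 21.5 RPKM with IL-21. Without IL-21, Ctsc stood at 57.9 and 73.2 RPKM at 0 h, 66.9 and 53.3 RPKM at 6 h, 79.4 and 59.2 RPKM at 24 h, and 18.9 and 30.3 RPKM at 72 h. With IL-21 it stood at 42.6 and 55.5, 54.8 and 73.7, 85.3 and 79.3, and 119 and 45.1 RPKM at the same times. The 72 h libraries without IL-21 were the lowest of the 16. The log2 fold change of IL-21 at 72 h was 1.55 (SE 0.35, adjusted p = 0.0211, edgeR), and it was lost without IL-21 replicate 1 of 72 h (0.98, adjusted p = 0.117). Without IL-21, Ctsc fell between 24 h and 72 h (-1.11, SE 0.35, adjusted p = 0.0491), where 14.8% of all genes were called and 1 of 6 members. This second call held in 3 of 7 other settings and when 72 h replicate 2 was left out, and was lost without 72 h replicate 1 or either 24 h library.

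Ctsd (chr7:142375911-142388038, minus strand), an aspartic endopeptidase of lysosomes, stood at 9.48 and 15.3 RPKM at 72 h without IL-21 and 63.4 and 33 RPKM with it. The groups did not overlap. The log2 fold change was 1.80 (SE 0.45, adjusted p = 0.0326, edgeR) and was lost without IL-21 replicate 1 of 72 h (1.51, adjusted p = 0.112). With only the 2 groups compared in the fit, where edgeR called 0 of 2467 genes and 176 had a fold above 2 and an unadjusted p below 0.05, the adjusted p was 0.575 for Ctsc and for Ctsd. At 6 h Ctsd stood at 41.8 and 23.9 RPKM without and 50.4 and 81.5 RPKM with IL-21 (0.98, SE 0.44, adjusted p = 0.402), and at 24 h at 18.9 and 26.3 RPKM without and 46.9 and 34.8 RPKM with it (0.75, SE 0.44, adjusted p = 0.498). IL-21 libraries were higher at both times, below the threshold.

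Ctsw and Ctss at 72 h rested on single libraries. Ctsw stood at 292 and 244 RPKM without IL-21 and 1070 and 263 RPKM with it (log2 difference 1.13, SE 0.47, adjusted p = 0.168), and it was called without IL-21 replicate 2 of 72 h (1.65, adjusted p = 0.0209). Ctss stood at 103 and 49.5 RPKM without and 177 and 112 RPKM with IL-21 (0.85, SE 0.27, adjusted p = 0.0727), and it was called without 72 h replicate 1 (1.41, adjusted p = 0.00256). Ctsz, a carboxypeptidase, stood at 32.7 and 0 RPKM without and 13.5 and 0.219 RPKM with IL-21 at 72 h, so its replicates differed by more than the groups. Ctsb stood at 2.48 and 9.19 RPKM without and 25.1 and 5.08 RPKM with IL-21 (1.09, SE 0.71, adjusted p = 0.376), and its groups overlapped.

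edgeR called 2 of 6 members for IL-21 at 72 h, where 8.08% of all 3503 genes were called. That share depends on the fit, with 283 genes called here, 475 by DESeq2 and 0 with only the groups compared. At the earlier times edgeR called 0 of 6 at 6 h (1.97% of all genes), 0 of 6 at 24 h (1.66%) and 0 of 6 at 0 h (0%). The unadjusted p was below 0.05 for 1, 0 and 0 of the 6, and DESeq2 and limma-voom called 0 at each of these times. At 0 h, when no culture time had passed by the label, 47 of all genes had a fold above 2 and an unadjusted p below 0.05, and DESeq2 called 0. For 6 h against 0 h without IL-21, edgeR called 0 of 6 members and 0% of all genes (36 at the unadjusted p, and 6 by DESeq2), and for 24 h against 6 h 0 of 6 and 0.0856% of all genes. In both of these, 0 of the 6 had an unadjusted p below 0.05, and DESeq2 and limma-voom called 0. Whether the effect of IL-21 differed between 72 h and 6 h was tested as an interaction. edgeR called 0 of 6 members, where 4.17% of all genes were called, 1 of the 6 had an unadjusted p below 0.05, DESeq2 called 1 and limma-voom 0. For Ctsc the difference of the 2 effects was 1.48 (SE 0.49, adjusted p = 0.119), beside a median of 0.14 over all genes tested. The smaller number of genes detected at 72 h without IL-21 moved with these results, and its part in them was not tested. The summed level of the 7 macrophage markers also moved with them, from 0.00754 to 9.19 RPKM without IL-21 to 27.9 to 67.9 RPKM with it. Nearly all of that sum was Cd68, while C1qa, C1qb, C1qc, Csf1r and Adgre1 were at 0 in all of these libraries. The part of Cd68-bearing cells in the results was not tested.

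Among the related genes at 72 h, the serine carboxypeptidase Ctsa, known as protective protein of lysosomal sialidase, was higher with IL-21 (20.7 to 75.4 RPKM) than without it (1.38 to 2.13 RPKM), with a log2 fold change of 4.56 (SE 0.74, adjusted p = 0.00297). This call held without any 1 library and in 6 of 7 other settings. Of 7 granule serine proteases tested, 5 were higher and 0 lower with IL-21 (Gzma, Gzmb, Gzmc, Gzmd and Gzme, median 1.94 beside 0.05 for all genes). Between 24 h and 72 h without IL-21, 0 of these 7 proteases were higher and 5 lower (median -1.31 beside -0.04), where 14.8% of all genes were called. The calls of Gzmd and Gzme held without any 1 library, and that of Gzmc was lost without 24 h replicate 2. The Gzmb call was lost without either 24 h library or 72 h replicate 2, and the Mcpt8 call whichever of the 4 libraries was left out. Ctsa, at 11.9 to 14.3 RPKM at 24 h, was lower too (-2.52, SE 0.67, adjusted p = 0.0268, edgeR). Its call was lost without either 24 h library or 72 h replicate 1. Of 8 inhibitors tested, 1 was higher, Serpina3g, at 240 to 599 RPKM against 138 to 145 RPKM without IL-21 (1.42, SE 0.32, adjusted p = 0.0189), and it was lost without IL-21 replicate 1 of 72 h. Of 13 lysosomal genes tested, 2 were higher (Ppt1 and Atp6v0d1) and 0 lower, where 8.08% of all genes were called. Atp6v0d1 was lost without IL-21 replicate 1 of 72 h, Ppt1 without that library or 72 h replicate 2, and Gzma without IL-21 replicate 2 of 72 h. M6pr was not called, at 8.14 to 11.9 RPKM without and 9.84 to 33.1 RPKM with IL-21.

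**Figure D4:**
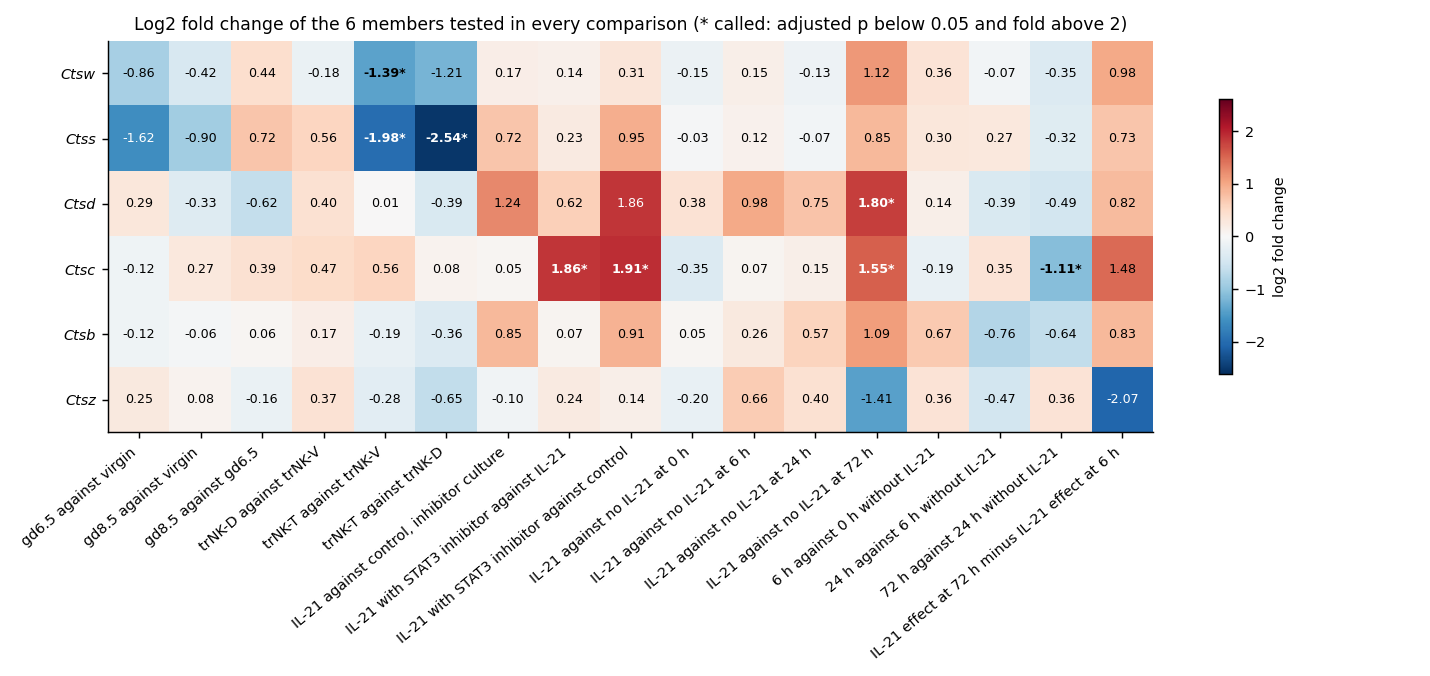
Log2 fold changes of the 6 cathepsins tested in every experiment (rows) over the 17 comparisons (columns), with an asterisk where edgeR called the gene. Ctss and Ctsw are lower in trNK-T, and Ctsc and Ctsd are higher with IL-21 at 72 h of the time course.

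In the single cells the same genes were read by cell class. Of 15175 cells, 8907 were kept with more than 200 and fewer than 2500 genes and under 10% mitochondrial UMIs, and all cathepsin genes were left out of the genes used for clustering. The cells are 1 pooled sample, so levels are CPM of the summed UMIs of a cluster with an exact Poisson 95% interval, shares of cells have an exact binomial interval, and there is no test. Both kinds of interval cover counting error only. Although the sort gate names NK cell proteins, the kept cells included 897 macrophage-like, 301 B-like and 214 stromal-like cells. No doublet caller was run, and the upper gene limit was the only guard against doublets.

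Ctsg sat mainly in 1 cluster of the kept cells. It held 923 cells led by Mt2, Gzmg, Scin, Tmsb15a and Ifitm1, and the 4 terminal-stage markers had UMIs in 30.4% to 91% of its cells (median 81.2%), against 0.867% to 2.82% for the 4 virginal-stage markers, so it is called terminal-stage trNK-like. It held 769 of the 944 Ctsg UMIs of the kept cells (81.5%), a level of 152.8 CPM (142.2 to 164). A Ctsg UMI was seen in 281 of its cells, 30.4% (27.5% to 33.5%), of which 133 held 1 UMI and 148 held 2 or more, up to 18. The cluster led by Gzmc, Gzmf, Gzmb and Tnfrsf9, with 1009 cells, reached 8.38 CPM (5.93 to 11.5) and 3.37% of cells. It too held the terminal-stage markers, in 18.7% to 87.8% of cells (median 65%), against 4.06% to 15.7% for the virginal-stage markers. The name terminal-stage trNK-like therefore does not mean that the Gzmc-led cluster lacks these markers. In B-like cells, which should lack the gene, 1.33% held a Ctsg UMI at 6.44 CPM. The median depths were 5720, 4722 and 1824 UMIs in these 3 clusters. After thinning every cell to 1000 UMIs, the shares were 12.3% (10.3% to 14.6%, 918 cells), 0.927% (0.425% to 1.75%, 971 cells) and 0.35% (0.00885% to 1.93%, 286 cells), so the share in the second cluster overlapped that of B-like cells. Dividing cells stood at 19.5 CPM (14.2 to 26.2).

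The 7 mast cell markers were unevenly present in the Ctsg cells of the terminal-stage trNK-like cluster. None of Mcpt4, Tpsb2, Tpsab1 and Ms4a2 had a UMI in the 281 cells, which allows up to 1.07% of cells with such a UMI and sets no limit on cells that express these genes. Cpa3, a mast cell carboxypeptidase, had a UMI in 8.9% of the Ctsg cells and 3.58% of the other cells of the cluster, the receptor gene Kit in 7.12% and 4.21%, and the chymase gene Cma1 in 1.42% and 0.623%. The Ctsg cells were also the deeper ones, with a median of 6126 UMIs against 5537. The part of mast cell RNA or of depth in these shares was not tested. One of the Ctsg cells held a UMI of the 3 neutrophil precursor genes measured. Mcpt8 had a UMI in 10.3% of them and in 9.35% of the other cells of the cluster. Epas1, the gene most like Ctsg in the bulk libraries, stood at 209.2 CPM in this cluster and 44.4 CPM in the Gzmc-led cluster, and Anxa3 at 157 and 23.8 CPM. Epas1 passed the bulk filter only through trNK-T and is among the leading genes of this cluster. Its level here is thus a description and no test of the likeness. Among all kept cells, the 6 with 3 or more UMIs of Mcpt4, Tpsb2, Tpsab1 and Ms4a2 held 18 Ctsg UMIs.

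The choice of cells set how much Ctsg was seen. Of the 5818 Ctsg UMIs in all 15175 cells, 83% lay in cells above the limit of 2500 genes. With no upper limit, 13076 cells were kept with 5775 Ctsg UMIs, of which 3029 and 1794 lay in the 2 clusters with the highest Ctsg, at 186.9 and 122.5 CPM. The first of these was led by Gm50375, Gzmg, Gzme, Gzmd and Gzmf and the second by Mt2, Tmsb15a and Gm8961, so the order of clusters changed with the limit. When the limits of 200 and 2500 were applied to UMIs, 4338 cells were kept and the highest cluster reached 51.2 CPM.

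**Figure D5:**
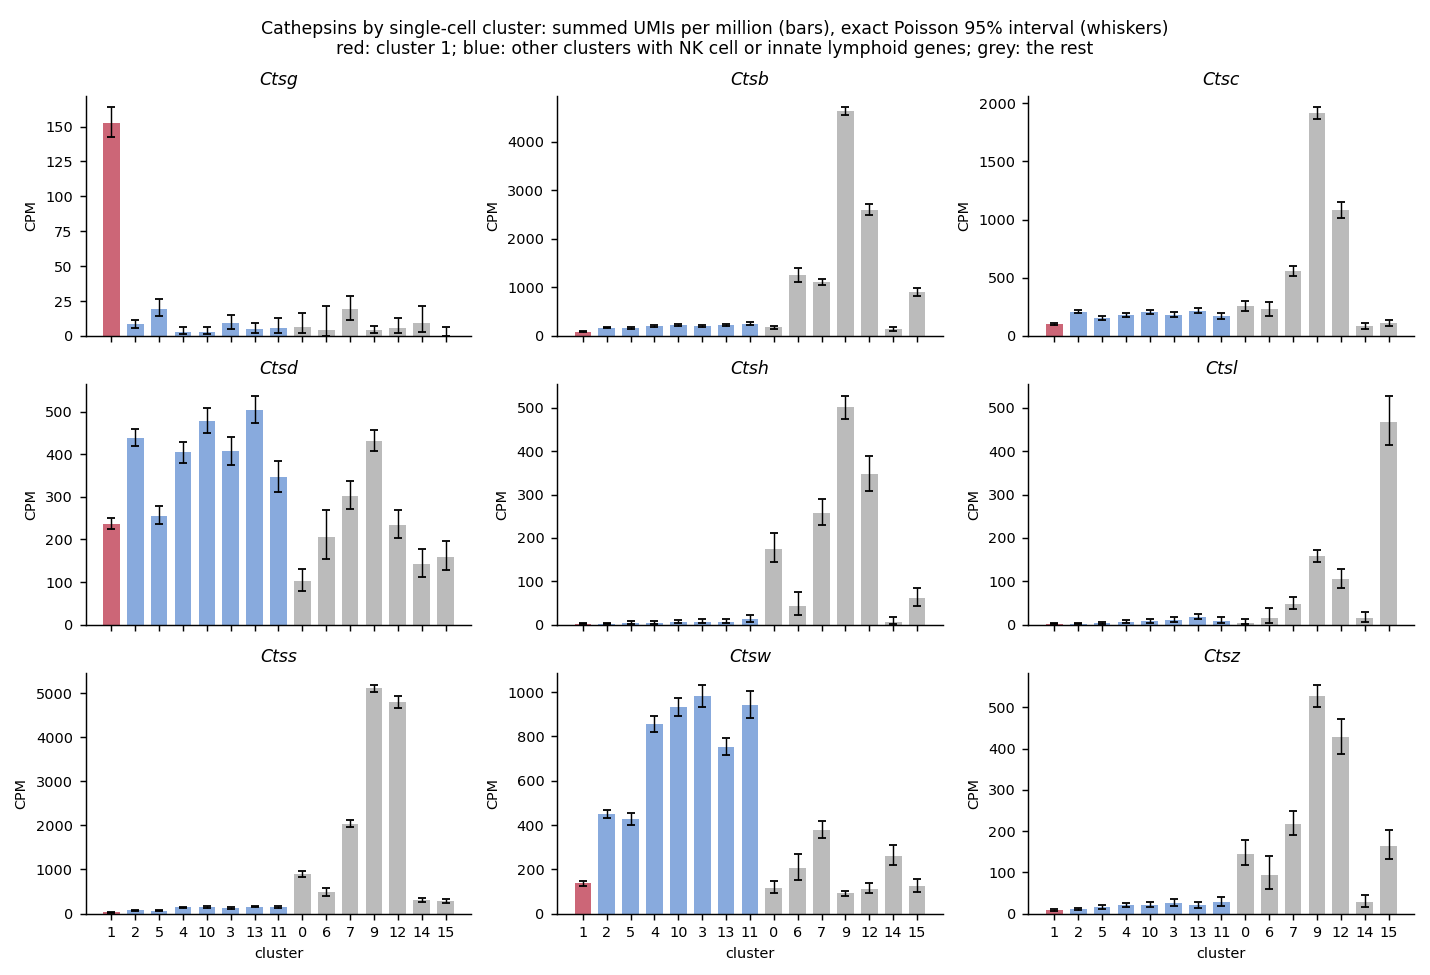
CPM of the cathepsin genes by single-cell cluster, with 1 panel per gene and linear axes, with bars for the level and whiskers for exact Poisson 95% intervals that cover counting error only. Ctsg peaks in the terminal-stage trNK-like cluster at 152.8 CPM, and Ctsb, Ctsc and Ctss peak in macrophage-like cells.

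Among the clusters with NK cell genes, Ctsw, Ctss, Ctsb, Ctsc, Ctsd, Ctsz and Ctsh had their lowest CPM in the terminal-stage trNK-like cluster. CPM is a share of a cluster's UMIs, and this cluster was the deepest, with a median of 5720 UMIs against 1724 in cNK-like cells. Without thinning, Ctsc was seen in 33.4% of this cluster's cells and 29.6% of cNK-like cells, and Ctsb in 31.9% and 28.9%. Ctsw was seen in 38.6% and 68.7%, and Ctss in 10.5% and 19.7%. Against cNK-like cells, the lower CPM of this cluster is thus not a lower share of cells for every gene. In the Gzmc-led cluster (median 4722 UMIs) the unthinned shares were higher, at 50.5% for Ctsc and 46.1% for Ctsb. They were 36% and 40% in the cluster led by Vps37b, Ier5l and Xcl1 (median 2567 UMIs). Ctsw stood at 136.5 CPM (126.5 to 147.1) in the terminal-stage trNK-like cluster and 449 CPM in the Gzmc-led cluster. It stood at 854.3 CPM in the Vps37b-led cluster and 753.9 CPM in cNK-like cells. At 1000 UMIs per cell, Ctsw was seen in 12.5%, 34.5%, 53.9% and 51.5% of these cells. Ctss stood at 25 CPM (20.9 to 29.8), 71.7, 144 and 155.2 CPM in the same 4 clusters. Within the subset experiment, Ctsw and Ctss were lowest in trNK-T. Ctsb stood at 88.4 CPM there and 172.1 and 206.5 CPM in the Gzmc-led and Vps37b-led clusters. Ctsd (237.3 CPM, beside 438.7 and 404.5 CPM) and Ctsc (100 CPM, beside 206.8 and 181.7 CPM) were lowest by CPM there too. For these genes the bulk test called no difference between trNK-T and trNK-V. Bulk Ctsc went the other way, at 123 and 101 RPKM in trNK-T and 78.9 and 73.4 RPKM in trNK-V.

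Macrophage-like cells held the highest Ctss (5112 CPM), Ctsb (4638 CPM), Ctsc (1916 CPM) and Ctsz (527.3 CPM) among clusters of at least 50 cells. Ctss was also high in the cluster led by Ly6i and Ace (4800 CPM) and present in B-like cells (897.1 CPM). The number of Ctss UMIs per UMI of the macrophage gene C1qb was 1.16 in macrophage-like cells, 5.66 in the Ly6i-led cluster and 11.9 in B-like cells, and 2, 4.06, 4.82 and 2.65 in the terminal-stage trNK-like, Gzmc-led, Vps37b-led and cNK-like clusters. The Ctss ratios of the NK clusters lay above that of macrophage-like cells and below those of the Ly6i-led cluster and B-like cells. For Ctsb the ratios were 7.06, 9.75, 6.91 and 3.97 in the same 4 NK clusters. They were 1.05 in macrophage-like cells, 3.07 in the Ly6i-led cluster and 2.3 in B-like cells. The part of macrophage RNA in the levels of the NK clusters was not tested. Ctsl peaked in stromal-like cells (467.9 CPM) and stood at 158 CPM in macrophage-like cells, and Ctsh stood at 500.8 CPM in macrophage-like cells and 1.59 CPM in the terminal-stage trNK-like cluster. Both genes were at their highest outside the NK clusters.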

How the data were processed

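The submitters' processing notes list HISAT2 2.1.0, mm10 and featureCounts, while the study's methods name HISAT2 and RSEM. The bulk values the authors deposited are whole-number read counts per gene, not normalized, with gene lengths. The single-cell files the authors deposited hold UMI counts per cell and gene in 2 parts of 6821 and 28416 genes for the same 15175 cells, with no sample tag used here. Library totals ranged from 11862089 to 66468883 counts. RPKM were computed from the counts. Each experiment was fitted over all its groups with edgeR 4.0.16 (TMM, quasi-likelihood, no covariates) in R 4.3.3 on genes above 10 RPKM in both libraries of any group. Alternatives were DESeq2 1.42.0, limma-voom (limma 3.58.1), other size factors and filters, only the groups compared, a replicate block and each library left out. Tested on simulated counts with 200 genes changed 4-fold, 95% (gd8.5 against virgin), 89.5% (trNK-T against trNK-V), 58.5% (IL-21 against control) and 60% (IL-21 at 72 h) were recovered. False calls were 3.06%, 3.24%, 8.59% and 4.76% of all calls in the same order. Standard errors were computed as the fold change over the root of F. Cells were clustered with scanpy 1.11.5 (20 components of 2000 variable genes, 20 neighbours, Leiden resolution 0.8), and the naming thresholds were chosen with the clusters in view. The named genes are the 9 members, listed genes that were called or highest in their list, and genes most like Ctsg. Some genes that met this rule are not reported here. Members and lists were chosen with earlier results of these data known.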

Additional observations from a re-analysis of the deposited data

Results flagged for a closer look

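The difference between libraries labelled with and without IL-21 had opposite signs at 0 h and 72 h for Ctsc. By the label no culture time had passed at 0 h, and whether those cells met IL-21 is not given in the sources used here. At 0 h both libraries with IL-21 lay below both without it (log2 difference -0.35, adjusted p = 0.9999 by edgeR), and at 72 h both lay above (1.55, adjusted p = 0.0211). The difference between these 2 times was not tested. The difference between 72 h and 6 h was tested and did not pass the threshold (1.48, adjusted p = 0.119).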

How the results depend on the processing

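Of 1144 refitted log2 fold changes of the 6 members, 1038 kept their direction and side of the threshold, 28 lost a call, 19 gained one, 56 changed sign with no call in either fit and 3 changed sign with a call. The 3 were all of Ctsz without 72 h replicate 1, where the remaining library held 0 Ctsz counts. Leaving out each 72 h library in turn, Ctsz ranged from -5.96 to 11.8 for IL-21 at 72 h, from -12.9 to 1.32 for 72 h against 24 h, and from -6.63 to 11.2 for the interaction.

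The number of members called for gd6.5 against virgin was 0, and 1 with DESeq2 and without the gene filter. For trNK-T against trNK-D it was 1, and 2 with DESeq2, without the filter and with the replicate block. For the inhibitor against IL-21 it was 1, and 0 with filterByExpr, with only the groups compared and with the replicate block. For the inhibitor against the control it was 1, then 2 with DESeq2, without the filter and with only the groups compared, and 0 with filterByExpr and the replicate block. For IL-21 at 72 h it was 2, then 4 without the filter and 0 with only the groups compared. For 72 h against 24 h it was 1, then 2 without the filter and 0 with other size factors, filterByExpr, only the groups compared and the replicate block. For the interaction it was 0, and 1 with DESeq2 and without the filter. Ctsh and Ctsl were called only without the filter (Ctsh in trNK-T against trNK-V and Ctsl with IL-21 at 72 h and in 72 h against 24 h). The number of all genes called moved too, given here for the same settings in the same order. It was 278, 462 and 919 for gd6.5 against virgin, and 82, 326, 587 and 151 for trNK-T against trNK-D. For the inhibitor it was 123, 1, 93 and 8 against IL-21, and 197, 583, 653, 259, 21 and 55 against the control. It was 283, 1518 and 0 for IL-21 at 72 h. For 72 h against 24 h it was 518, 1829, 523, 1143, 72 and 477, and for the interaction 146, 345 and 873. The cause of these changes was not tested.

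The number of members called also changed with the library left out, and so did the number of all genes called. Each such fit rests on 1 library in a group, so these counts are not set out. The single-cell level of Ctsg in its highest cluster was 152.8 CPM, 51.23 CPM with limits on UMIs and 186.9 CPM with no upper limit. In each experiment at least 1 pair of groups had same-numbered replicates that did not deviate together. Correlations over the pairs ran from -0.308 to 0.11 (gestation), -0.0085 to 0.387 (subsets), -0.431 to 0.54 (inhibitor culture) and -0.337 to 0.407 (time course). The numbers were therefore not taken to pair the samples, although these correlations cannot exclude that some libraries were prepared together. With the replicate block, the adjusted p of Ctss in trNK-T against trNK-V was 0.00397, of Ctsw 0.00485 and of Ctsc at 72 h 0.0336. With 2 libraries per group and common coefficients of variation of 0.248 to 0.414, small changes could go uncalled. In the simulated cultures many 4-fold changes also went uncalled.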
